A study of Mus musculus with 14 samples.

Results

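Tetraspanins are small membrane proteins that cross the membrane 4 times and gather integrins, proteases and immunoglobulin-superfamily proteins into patches of the cell surface and of endosomes. The account covers 9 tetraspanin genes of the mouse oligodendrocyte (OL) lineage, Tspan2, Tspan3, Tspan7, Tspan15, Cd9, Cd63, Cd81, Cd82 and Cd151, out of 23427 genes in the expression table. They were chosen by gene symbol, with Tspan2 at the head because of its decrease when Secisbp2l (Sbp2l) was knocked down. On the logarithmic scale used here, that decrease was the largest after the targeted gene itself. That scale understates fold changes of low genes. By mean fold change, the paper lists larger decreases for Alox5, Pmp2 and Rnf112 than for Tspan2. The Tspan2 rank of 2 among 11650 genes on the scale used here is how it was picked and not a finding. No test of siSbp2l is given for any of the 9 genes.

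The 14 libraries came from primary oligodendrocyte precursor cells (OPCs) of C57BL/6J mice, captured with an antibody against Pdgfra from cortices of pups of postnatal day 7 that were pooled. Differentiation was started by withdrawing PDGF-AA and giving thyroid hormone T3. There were 7 groups of 2 libraries, each labelled wild type unless a knockdown is named. Day0 was the first, and the other groups were harvested at Day3: non-treated, mock, NC siRNA #1 and NC siRNA #2 (siRNAs without a target), siSbp2l and siPdgfra. Per the methods of the study, the RNA came from 2 replicate OPC cultures that were independent of each other, and the labels number the 2 libraries of a group.

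In brain, Tspan2 is found chiefly in OLs and is a component of myelin. Cd9 and Cd81 are surface tetraspanins that bind integrins and the immunoglobulin-superfamily proteins Ptgfrn and Igsf8, and both occur in OL lineage cells. Cd63 sits in late endosomes, lysosomes and exosomes, and Cd82 and Cd151 bind integrins at the surface. Tspan15 belongs to the TspanC8 group, the tetraspanins that escort the membrane protease Adam10 and shape which substrates it cuts. Tspan3 was described in OLs as a partner of the tight-junction protein claudin-11, which Cldn11 encodes, and Tspan7 binds the PDZ protein Pick1.

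Expression was given in FPKM, fragments per kb of exon and scaled to the mapped fragments of the library. That scaling does not adjust for the composition of a library, so small differences between libraries depend on it. Median-ratio scaling moved the median siSbp2l difference from the controls over all genes from 0.15 to 0.0033 (log2). Recovered depth ran from 6560825 fragments (NC siRNA #2 replicate 2) to 31621279 (Day0 replicate 1). The 2 non-treated libraries stood apart from each other: the SD of their log2 difference over genes was 0.468, against 0.148 to 0.202 in the other 6 groups. Secisbp2l was at 3.91 and 3.82 FPKM in siSbp2l and between 135 and 255 FPKM in the 8 Day3 control libraries, and Pdgfra was at 3.30 and 2.69 FPKM in siPdgfra against 32.4 to 72.1 FPKM in those controls. The lineage genes Olig1, Olig2 and Sox10 were expressed in every library, and the 6 endothelial markers stayed under 1 FPKM throughout. Of 8 microglial markers 7 stayed under 1 FPKM, and the immune-cell tetraspanins Cd37 and Cd53 did not exceed 0.0784 FPKM. The remaining microglial marker, P2ry12, was at 0.513 to 9.46 FPKM. Of 7 neuronal markers 3 stayed under 1 FPKM, and Rbfox3, Snap25 and Syt1 did not exceed 5.16 FPKM. Tubb3, a neuronal tubulin, was at 22.8 to 273 FPKM. Of 7 astrocyte markers 2 stayed under 1 FPKM. Gfap, an astrocyte gene, was at 0.677 and 0.755 FPKM at Day0 and between 36.8 and 79.2 FPKM in the Day3 controls. Aldh1l1, Slc1a2 and Fgfr3 were also higher in the controls than at Day0. Sox9 went the other way, from 29.1 and 25.2 FPKM at Day0 to between 4.83 and 8.70 in the controls. The part of these genes in the results was not tested. In bulk RNA, fewer cells of a type and less RNA per cell cannot be told apart.

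The 2 members with the largest difference between Day3 and Day0, Cd82 and Tspan2, are shown by the 250 bases that precede the gene start, from RefSeq (GRCm38.p6, the mm10 build of the files). All 9 members matched the RefSeq table, with 14 windows between them. The Tspan2 window lies at chr3:102734520-102734769 on the plus strand and the Cd82 window at chr2:93462951-93463200 on the minus strand. Capitals mark CTTTG or its reverse complement CAAAG, the core of the element read by Tcf/Lef factors.
Tspan2: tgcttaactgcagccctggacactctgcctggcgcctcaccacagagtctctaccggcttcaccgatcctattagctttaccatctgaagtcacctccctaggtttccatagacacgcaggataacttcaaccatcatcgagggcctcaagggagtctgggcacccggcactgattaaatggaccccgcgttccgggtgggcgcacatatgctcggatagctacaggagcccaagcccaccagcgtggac
Cd82: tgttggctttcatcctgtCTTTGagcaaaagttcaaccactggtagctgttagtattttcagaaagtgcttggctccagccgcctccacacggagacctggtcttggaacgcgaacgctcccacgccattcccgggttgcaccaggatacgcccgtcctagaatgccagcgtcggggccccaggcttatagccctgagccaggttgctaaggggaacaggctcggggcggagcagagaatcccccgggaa
The Tspan2 window held no such core and the Cd82 window held 1 match. Of all 32851 promoter windows of this length 48.6% held the core on either strand, and 6 of the 14 member windows did, so a match says little by itself. Those 6 were all 4 windows of Cd82, 1 of Cd63, and the second Tspan2 window, at chr3:102734965-102735214, which lies inside the gene downstream of its first start. The Tspan2 window had 12 CpG dinucleotides and the Cd82 window 14, where the median over all windows was 6.

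Tspan2 was low in OPCs, high in differentiated cells and lowest in siSbp2l. Its level was 9.97 and 10.6 FPKM at Day0. At Day3 it was 79.5 and 128 FPKM in non-treated cells, 90.0 and 92.7 in mock, 127 and 121 in NC siRNA #1, and 83.7 and 98.0 in NC siRNA #2. With siSbp2l it was 5.65 and 5.69 FPKM, and with siPdgfra 144 and 142. Thus the 2 siSbp2l libraries lay below the Day0 libraries, the siPdgfra libraries lay above the 8 controls, and the 4 control groups overlapped their neighbours in order. Between Day0 and Day3 the level rose by 3.17 ± 0.17 (SE) on the log2(FPKM + 1) scale in non-treated cells (limma, adjusted p = 2.75e-08) and by 3.03 ± 0.17 in mock (adjusted p = 4.02e-08). Against the mean of the 4 controls, siPdgfra was higher by 0.50 ± 0.14 (adjusted p = 0.0138). That call held against non-treated, mock and NC siRNA #2 taken alone, but not against NC siRNA #1 (0.21, adjusted p = 0.372), and it was lost without siPdgfra replicate 1 or replicate 2 (adjusted p = 0.0906 and 0.0797), where 1 library stood for the group. In siSbp2l the log2 difference from the mean of the controls was -3.93, and against single control groups it ran from -3.78 (NC siRNA #2) to -4.23 (NC siRNA #1). The gene lies on chromosome 3 from 102734770 to 102772310 (mm10) and overlaps 2410057H14Rik on the other strand, which did not exceed 0.509 FPKM.

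**Figure D1:**
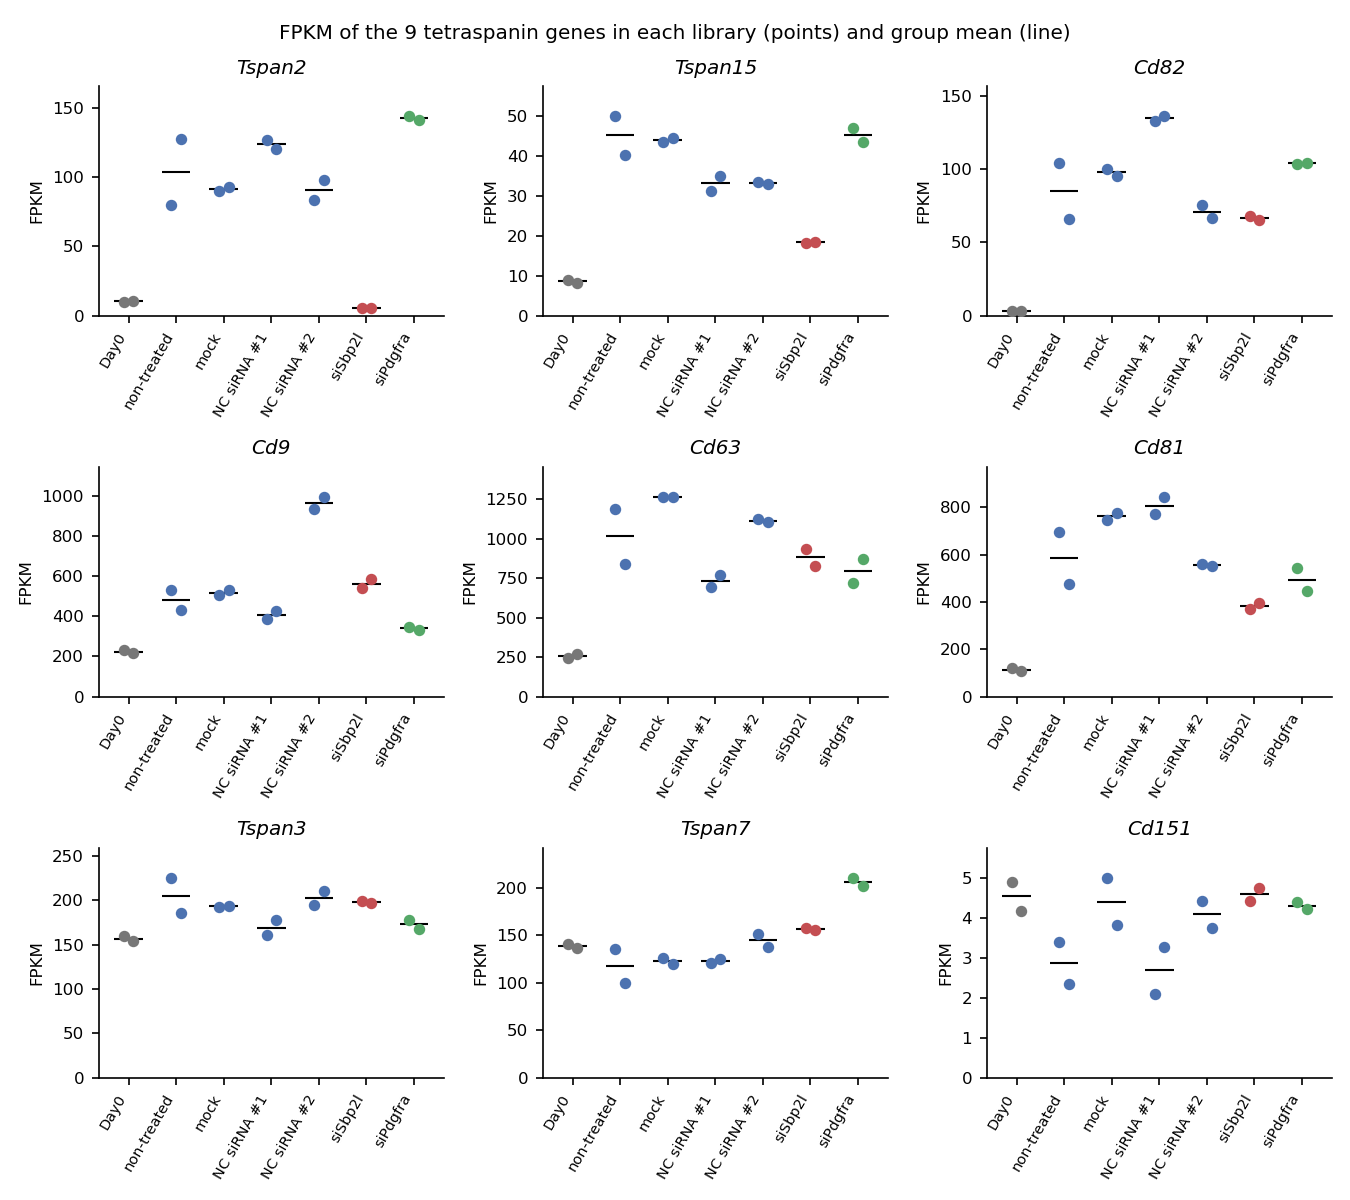
FPKM of the 9 genes on linear axes that start at 0, with 1 point for each library (2 per group, Day0 in grey, Day3 controls in blue, siSbp2l in red, siPdgfra in green) and a line at the group mean. The Tspan2 points of siSbp2l (5.65 and 5.69 FPKM) lie below those of Day0 (9.97 and 10.6 FPKM), and NC siRNA #2 holds the highest Cd9 points (935 and 996 FPKM).

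Tspan15 (chromosome 10, 62185396 to 62231218, minus strand), the TspanC8 member of the set, followed differentiation as well. It was at 9.01 and 8.29 FPKM at Day0 and, at Day3, at 50.04 and 40.4 in non-treated, 43.6 and 44.6 in mock, 31.3 and 35.1 in NC siRNA #1, and 33.6 and 33.0 in NC siRNA #2. siSbp2l gave 18.2 and 18.4 FPKM and siPdgfra 46.9 and 43.5. The siSbp2l libraries lay between Day0 and all 8 controls, and the siPdgfra libraries lay among the non-treated and mock libraries. Tspan15 rose by 2.25 ± 0.11 (log2) from Day0 in non-treated cells (limma, adjusted p = 9.07e-09) and by 2.23 ± 0.11 in mock (adjusted p = 9.88e-09). Cells given either NC siRNA had less of it than non-treated and mock cells, by -0.41 ± 0.08 (adjusted p = 0.00386), so the choice of control moves its level. With siPdgfra the difference was 0.23 ± 0.09 and did not pass (adjusted p = 0.0514), but it passed without the non-treated group (0.30, adjusted p = 0.0196). Without non-treated replicate 1 or replicate 2, where 1 library stood for that group, it was 0.27 and 0.19. Against NC siRNA #1 and NC siRNA #2 alone the siPdgfra difference was 0.44 and 0.43 and passed (adjusted p = 0.00985 and 0.0108). Against mock and non-treated alone it was 0.035 and 0.0078 and did not pass (adjusted p = 0.822 and 0.959). The descriptive difference of siSbp2l was -1.03 from the mean of the controls, between -0.82 (NC siRNA #1) and -1.25 (non-treated).

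Cd82 (chromosome 2, 93419102 to 93462950, minus strand) had the steepest rise of the 9. It went from 3.02 and 2.95 FPKM at Day0 to 104 and 66.0 in non-treated, 100.4 and 95.4 in mock, 133 and 136 in NC siRNA #1, and 75.4 and 66.8 in NC siRNA #2. In siSbp2l it was at 68.2 and 64.9 FPKM and in siPdgfra at 104 in both libraries. The siSbp2l values touched the lower end of the controls, and the siPdgfra values lay within the control range. The rise from Day0 was 4.40 ± 0.16 (log2) in non-treated cells and 4.63 ± 0.16 in mock (limma, adjusted p = 1.55e-09 and 1.09e-09). The 2 non-targeting siRNAs differed by 0.92 ± 0.17, with NC siRNA #1 higher (adjusted p = 0.0042). Around that gap, siPdgfra did not pass against the mean of the controls (0.15 ± 0.14, adjusted p = 0.387) or against NC siRNA #1 (-0.37, adjusted p = 0.104) and was above NC siRNA #2 (0.54, adjusted p = 0.0265). Without non-treated replicate 1, where 1 library stood for that group, the difference from the control mean was 0.23. The siSbp2l difference was -0.49 on average and ranged from -0.09 against NC siRNA #2 to -1.01 against NC siRNA #1.

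Cd9, Cd63 and Cd81 were the most abundant members at Day3, and together made up 48.1% to 49.4% of the summed FPKM of 31 tetraspanin genes at Day0 and 63.8% to 76.4% at Day3. Cd9 (chromosome 6, 125460266 to 125494755, minus strand) was at 231 and 216 FPKM at Day0, 531 and 432 in non-treated, 508 and 529.7 in mock, 385 and 426 in NC siRNA #1, 935 and 996 in NC siRNA #2, 542 and 584 in siSbp2l, and 349 and 332 in siPdgfra. NC siRNA #2 thus stood above every other library, and siPdgfra lay below all 8 controls. Cd9 rose from Day0 by 1.10 ± 0.12 (log2) in non-treated cells and 1.21 ± 0.12 in mock (limma, adjusted p = 7e-06 and 3.09e-06). NC siRNA #1 was lower than NC siRNA #2 by -1.25 ± 0.12 (adjusted p = 6.73e-05). siPdgfra had less Cd9 than the control mean, by -0.71 ± 0.10 (adjusted p = 0.000175), but the gap ranged from -1.50 against NC siRNA #2 to -0.25 against NC siRNA #1, where it did not pass (adjusted p = 0.117). In siSbp2l the average difference was 0.011, made of 0.47 against NC siRNA #1 and -0.78 against NC siRNA #2.

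Cd63 (chromosome 10, 128908919 to 128912818, plus strand) was at 243 and 269 FPKM at Day0, and in Day3 cells at 1190.2 and 843 in non-treated, 1265 and 1262 in mock, 695 and 771 in NC siRNA #1, 1122 and 1106 in NC siRNA #2, 937 and 829.98 in siSbp2l, and 719 and 872 in siPdgfra. Neither knockdown left the range of the controls. The gene rose by 1.97 ± 0.16 (log2) from Day0 in non-treated cells and by 2.30 ± 0.16 in mock (limma, adjusted p = 8.92e-07 and 2.33e-07). NC siRNA #1 was lower than NC siRNA #2 by -0.61 ± 0.17 (adjusted p = 0.0279), a call lost when any 1 of those 4 libraries was left out (adjusted p from 0.0841 to 0.184). The siPdgfra difference, -0.35 ± 0.13, passed narrowly (adjusted p = 0.046), was 0.11 in the other direction against NC siRNA #1 alone, and was lost without any 1 of the mock, NC siRNA #1, NC siRNA #2 or siPdgfra libraries (adjusted p from 0.055 to 0.363).

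Cd81 (chromosome 7, 143052750 to 143067930, plus strand) was at 122 and 107 FPKM at Day0. At Day3 it was at 695 and 475 in non-treated, 747 and 777 in mock, 770.3 and 844 in NC siRNA #1, 561 and 553 in NC siRNA #2, 370.2 and 395 in siSbp2l, and 543 and 445 in siPdgfra. The siSbp2l libraries lay below all 8 controls, while those of siPdgfra overlapped the lower ones. Cd81 rose by 2.32 ± 0.17 (log2) from Day0 in non-treated cells and by 2.73 ± 0.17 in mock (limma, adjusted p = 2.76e-07 and 7.13e-08). It was lower in siPdgfra by -0.44 ± 0.13 (adjusted p = 0.0196), a call lost without siPdgfra replicate 2 (-0.29, adjusted p = 0.219), against non-treated alone (-0.23, adjusted p = 0.294) and against NC siRNA #2 alone (-0.18, adjusted p = 0.413). The siSbp2l difference was -0.80 on average, from -0.54 (NC siRNA #2) to -1.07 (NC siRNA #1). The antisense gene R74862, which overlaps Cd81, did not exceed 4.33 FPKM.

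Tspan3 and Tspan7 were already abundant in OPCs and changed little on differentiation. Tspan3 (chromosome 9, 56135884 to 56161070, minus strand) was at 159.8 and 154 FPKM at Day0, 225 and 185 in non-treated, 193 in both mock libraries, 161 and 177 in NC siRNA #1, 195 and 210.3 in NC siRNA #2, 199 and 197 in siSbp2l, and 178 and 168 in siPdgfra. Both Day0 libraries were below every control, yet the rise was only 0.38 ± 0.11 (log2) in non-treated cells and 0.30 ± 0.11 in mock (limma, adjusted p = 0.00867 and 0.0292). The non-treated call was lost with only the libraries compared (adjusted p = 0.161) and without Day0 replicate 2 (0.35). Leaving out any 1 Day0 or mock library ended that of mock (0.27 to 0.33).

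Tspan7 (chromosome X, 10485116 to 10596604, plus strand) was at 141 and 136 FPKM at Day0, 135 and 99.9 in non-treated, 126 and 119 in mock, 120.4 and 125 in NC siRNA #1, 152 and 137 in NC siRNA #2, 157 and 155 in siSbp2l, and 210.1 and 201 in siPdgfra. The siPdgfra libraries were above all others and the siSbp2l libraries just above the highest control. The change from Day0 did not pass the limma test in non-treated (-0.25 ± 0.13, adjusted p = 0.102) or mock cells (-0.18 ± 0.13, adjusted p = 0.233). In mock it passed with only the libraries compared (adjusted p = 0.0339). In non-treated cells it was -0.47 without non-treated replicate 1, where 1 library stood for that group. With siPdgfra, Tspan7 rose by 0.70 ± 0.11 relative to the control mean (limma, adjusted p = 0.000375), and by 0.51 to 0.82 against each control group alone, passing in all 4.

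Cd151 (chromosome 7, 141467362 to 141471481, plus strand) was the scarcest, between 2.11 and 5.01 FPKM in all 14 libraries. Its values were 4.91 and 4.17 FPKM at Day0, 3.39 and 2.34 in non-treated, 5.01 and 3.82 in mock, 2.11 and 3.27 in NC siRNA #1, 4.43 and 3.76 in NC siRNA #2, 4.42 and 4.77 in siSbp2l, and 4.42 and 4.22 in siPdgfra. Day0 and the controls overlapped. The non-treated cells were lower than Day0 by -0.53 ± 0.18 (log2, limma, adjusted p = 0.021), but mock cells were not (-0.040 ± 0.18, adjusted p = 0.858). The first call was lost with only the libraries compared (adjusted p = 0.0795), and without non-treated replicate 2 (-0.33) or Day0 replicate 1 (-0.43).

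Counted over the set, 8 of the 9 genes passed an adjusted p of 0.05 in non-treated Day3 cells against Day0, 7 higher and 1 lower, where 67.0% of 11874 genes passed (28.4% higher and 38.6% lower). In mock against Day0, 7 passed, all higher, where 66.3% of genes passed (29.7% higher and 36.6% lower). At a difference of 2-fold or more the 2 comparisons gave the same 6 members, Tspan2, Tspan15, Cd82, Cd9, Cd63 and Cd81, all higher. In the non-treated comparison 11.4% of all genes were called higher at that size and in the mock comparison 12.2%. The median log2 difference of the 9 was 1.97 in non-treated and 2.23 in mock, beside -0.12 and -0.070 over all genes tested. These 2 comparisons share the Day0 libraries.

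In siPdgfra against the mean of the controls, 5 members passed, Tspan2 and Tspan7 higher and Cd9, Cd63 and Cd81 lower, where 55.4% of 11650 genes passed (32.4% higher and 23.0% lower). None of the 5 reached 2-fold, which 7.99% of all genes did. The count was 2 without siPdgfra replicate 2, 3 without siPdgfra replicate 1 or against non-treated alone, and 8 without non-treated replicate 1. The calls over all genes moved with it, from 6454 of 11650 to 4338 of 11570 without siPdgfra replicate 2, 4472 of 11573 without siPdgfra replicate 1, 5855 of 11650 against non-treated alone and 8417 of 11633 without non-treated replicate 1. The summed FPKM of 7 astrocyte markers was 32.1 to 32.4 in siPdgfra and 61.4 to 112 in the controls, and that of the 8 OL markers 4461 to 5162 and 5087 to 9249, and their part in the result was not tested. The median of the 9 was 0.15, beside 0.089 over all genes.

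The control groups also differed from one another. Between NC siRNA #1 and NC siRNA #2, 3 members passed, Cd82 higher and Cd63 and Cd9 lower in NC siRNA #1, where 21.0% of genes passed (10.1% higher and 10.8% lower). Cd9 alone reached 2-fold there, as did 3.99% of all genes. In both NC siRNAs against non-treated and mock, 2 members passed, Cd9 higher (0.33 ± 0.09, limma adjusted p = 0.019) and Tspan15 lower, where 28.1% of genes passed (16.3% higher and 11.8% lower). The Cd9 call was lost without mock replicate 1 or 2, NC siRNA #1 replicate 2 or NC siRNA #2 replicate 2 (adjusted p from 0.0558 to 0.0904). Tspan2 did not pass in either comparison (0.45 ± 0.18, adjusted p = 0.116 and 0.14 ± 0.13, adjusted p = 0.446). Without non-treated replicate 2, where 1 library stood for that group, the second difference was 0.31.

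**Figure D2:**
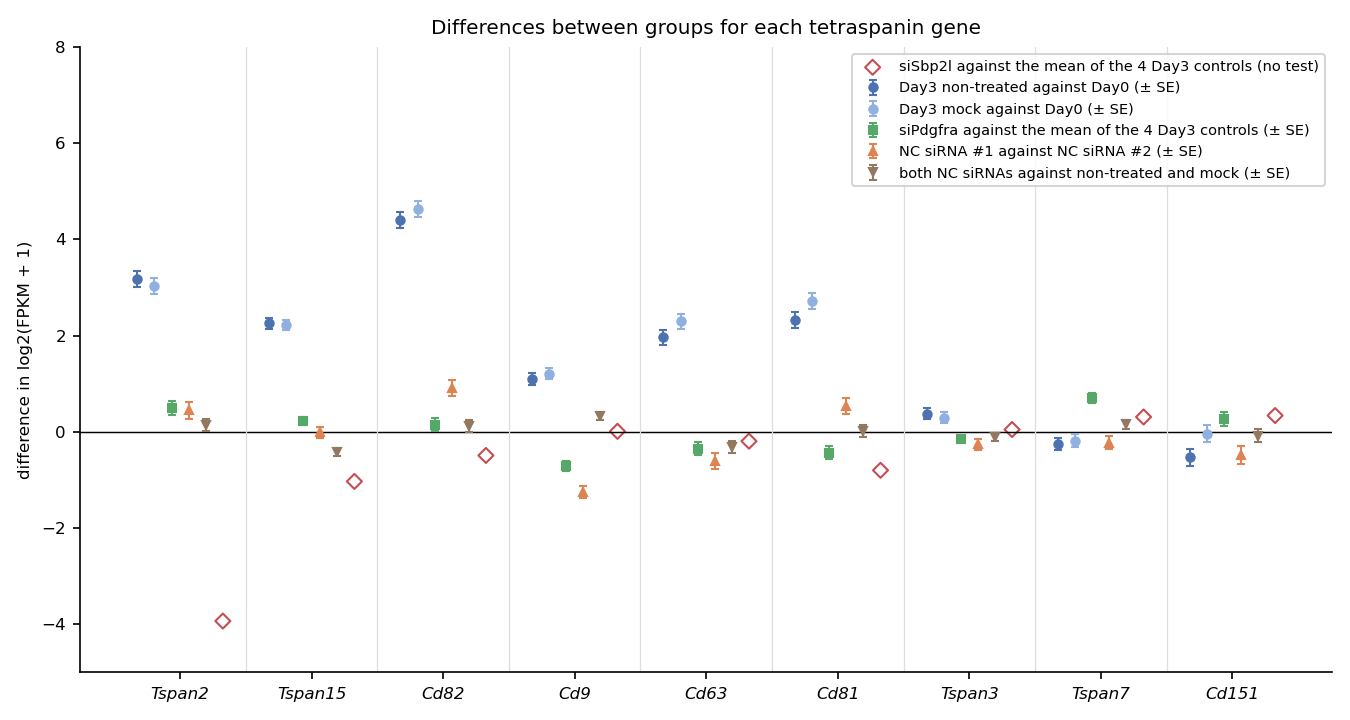
Difference in log2(FPKM + 1) for each of the 9 genes in 6 comparisons. Filled symbols carry the SE of the limma fit and open red diamonds, the siSbp2l comparison that chose the genes, carry no error and no test. Cd82 shows the highest rises from Day0 (4.40 and 4.63) and Tspan2 the lowest siSbp2l value (-3.93).

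Described only, the siSbp2l differences from the mean of the 4 controls split the set. There were 3 members below all 8 control libraries (Tspan2, Tspan15 and Cd81), Tspan7 lay above them, and the other 5 overlapped, where 44.3% of all genes fell outside the control range (30.8% above and 13.5% below). For siPdgfra, Tspan2 and Tspan7 lay above and Cd9 below, and 6 members overlapped, where 44.0% of genes fell outside (26.5% above and 17.5% below). For Day0, 7 lay below and none above, where 61.6% did (33.9% above and 27.7% below). The siSbp2l and siPdgfra comparisons share their 8 control libraries. For Tspan2 the values side by side were -3.93 in siSbp2l and 0.50 in siPdgfra, for Cd9 0.011 and -0.71, and for Cd81 -0.80 and -0.44. The median siSbp2l difference of the 9 was -0.19, beside 0.15 over all genes, and median-ratio scaling brought the latter to 0.0033. Under that scaling the small Cd9 and Tspan3 values turned negative (-0.16 and -0.12). Markers of mature OLs moved too: the summed FPKM of 8 such genes was 1836 to 2051 in siSbp2l, 5087 to 9249 in the controls and 459 to 503 at Day0, and their part in the tetraspanin levels was not tested. Of the 9, Tspan2 alone had both siSbp2l libraries below both Day0 libraries.

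The wider family was read from 22 other tetraspanin genes, of which 13 were expressed highly enough to test (1 FPKM or more in at least 2 libraries). In siSbp2l against the mean of the controls 7 of the 13 passed, 3 higher (Tspan12, Tspan18 and Tspan33) and 4 lower (Tspan4, Tspan9, Tspan10 and Tspan17), where 53.4% of genes passed (35.5% higher and 17.9% lower). Of the 4 lower, Tspan4 (10.7 and 9.44 FPKM) and Tspan10 (0.167 and 0.134 FPKM) overlapped the control libraries in siSbp2l. NC siRNA #1 held Tspan4 at 9.17 and 10.4 FPKM, and NC siRNA #2 held Tspan10 at 0. Past 2-fold were Tspan9, Tspan17 and Tspan18, where 7.19% of genes were. Their median difference was 0.14, beside 0.15 over all genes. Tspan17, another TspanC8 gene, was at 1.48 and 1.20 FPKM at Day0, between 10.2 and 21.4 in the controls, at 4.63 and 4.50 in siSbp2l and at 9.10 and 8.91 in siPdgfra. All 4 knockdown libraries lay below the controls. It rose by 2.49 ± 0.13 (log2) in non-treated cells and by 2.80 ± 0.13 in mock from Day0 (limma, adjusted p = 2.68e-08 and 1.03e-08), and fell in siSbp2l by -1.67 ± 0.11 (adjusted p = 1.47e-06) and in siPdgfra by -0.82 ± 0.11 (adjusted p = 0.000148).

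Tspan9 was between 1.78 and 6.64 FPKM in the controls, at 1.24 and 1.59 in siSbp2l and at 0.880 and 0.968 in siPdgfra. NC siRNA #2 alone, at 1.83 and 1.78, came near the knockdown values. In siSbp2l its difference from the controls was -1.11 ± 0.11 (limma, adjusted p = 2.41e-05), which against NC siRNA #2 alone was -0.22 and did not pass (adjusted p = 0.234), and in siPdgfra it was -1.43 ± 0.11 (adjusted p = 4.2e-06). Tspan18 was at 4.81 and 4.79 FPKM in siSbp2l and between 0.610 and 3.29 in the controls, a rise of 1.02 ± 0.10 (adjusted p = 2.25e-05). NC siRNA #1 held Tspan18 at 3.29 and 3.11 FPKM and NC siRNA #2 at 0.707 and 0.610. Over the alternatives run, its siSbp2l difference ranged from 0.47 to 1.81. Tspan12, known as a helper of norrin and Frizzled signalling in vessels, was at 54.6 and 57.0 FPKM at Day0, between 19.9 and 34.6 in the controls and at 41.1 and 40.9 in siSbp2l, higher by 0.78 ± 0.11 (adjusted p = 0.000196). Tspan12, Tspan13 and Tspan33 all fell between Day0 and non-treated Day3, by -0.91, -1.37 and -1.11 (adjusted p = 6.71e-05, 2.99e-06 and 2.57e-06).

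In siPdgfra 10 of the 13 passed, 4 higher and 6 lower, where 55.4% of genes passed (32.4% higher and 23.0% lower). Their median was -0.21, beside 0.089 over all genes. Past 2-fold were Tspan9 and Tspan6, where 7.99% of genes were. Tspan6, a tetraspanin of endosomes, was at 73.9 and 69.1 FPKM at Day0, between 32.7 and 51.9 in the controls, at 42.8 and 43.2 in siSbp2l, and at 19.3 and 16.8 in siPdgfra. The siPdgfra libraries lay below the control range and those of siSbp2l within it. The siPdgfra difference was -1.05 ± 0.09 (limma, adjusted p = 8.42e-06).

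**Figure D3:**
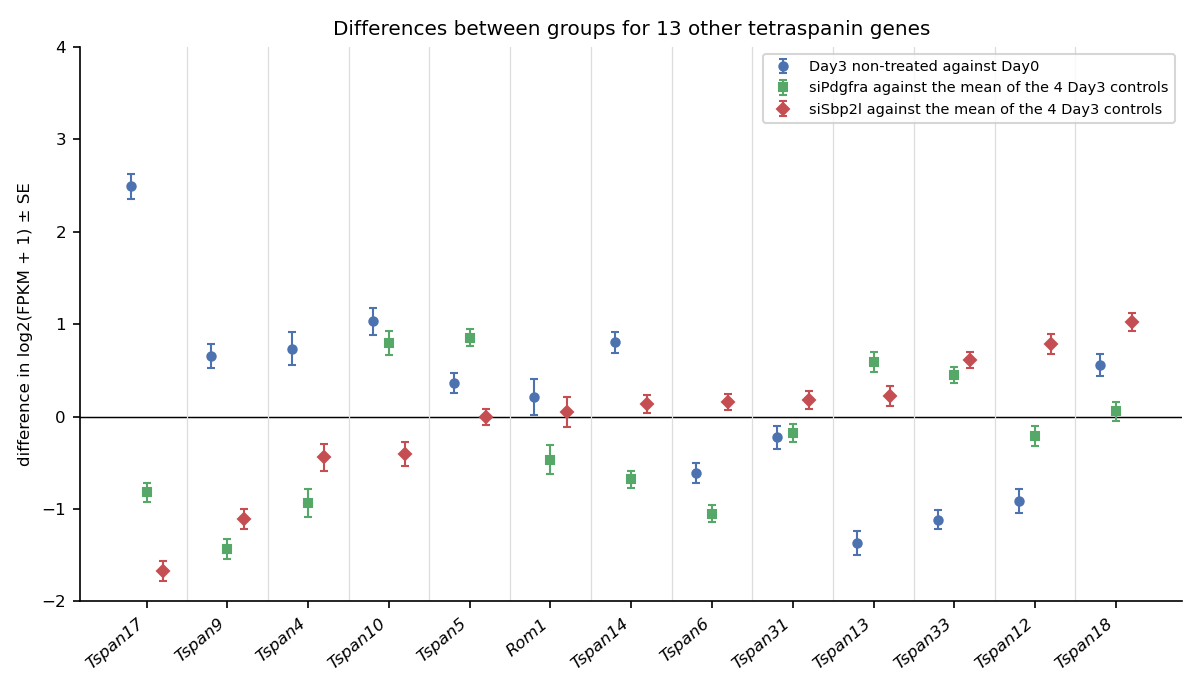
Difference in log2(FPKM + 1) ± SE of the limma fit for the 13 other tetraspanin genes that were tested, ordered by their siSbp2l difference, in non-treated Day3 against Day0 and in each knockdown against the mean of the controls. Tspan17 is the lowest in siSbp2l (-1.67) and the highest at Day3 against Day0 (2.49).

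The 6 TspanC8 genes, the group of Tspan15, differed in both their sum and their make-up. They summed to 61.5 and 57.9 FPKM at Day0, 120.1 to 154 in the controls, 115 and 114 in siSbp2l, and 137 and 128 in siPdgfra. Tspan15 made up 14.6% and 14.3% of that sum at Day0, 21.8% to 33.6% in the controls, 15.9% and 16.1% in siSbp2l, and 34.3% and 34.0% in siPdgfra. Tspan14, the most abundant of the group in most libraries, took 61.9% and 62.0% in siSbp2l against 43.1% to 48.9% in the controls and 29.5% and 30.7% in siPdgfra. Tspan5 took 27.4% and 26.3% in siPdgfra and 11.5% to 18.6% in the controls. These shares were described after the values had been seen and were not tested. Adam10 itself was at 76.3 and 77.2 FPKM in siSbp2l and between 51.0 and 80.6 in the controls, and passed in neither knockdown (0.26 ± 0.13, limma adjusted p = 0.122, and -0.015 ± 0.13, adjusted p = 0.929). The siSbp2l difference of Adam10 did pass against mock alone (0.52, adjusted p = 0.0303). Without non-treated replicate 1 or replicate 2, where 1 library stood for that group, it was 0.18 and 0.34.

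**Figure D4:**
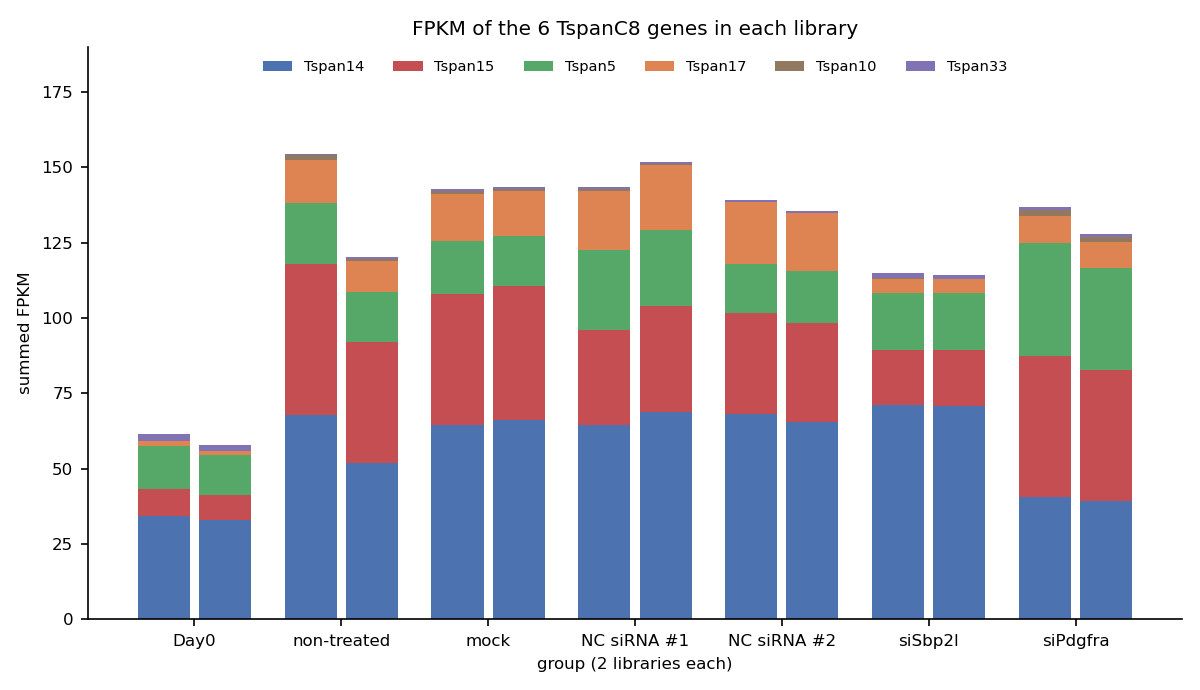
Stacked FPKM of the 6 TspanC8 genes in each of the 14 libraries, on a linear axis that starts at 0. In siSbp2l the Tspan15 and Tspan17 segments are smaller than in the Day3 controls while Tspan14 is at 71.1 and 70.8 FPKM, and in siPdgfra the Tspan5 segment is larger (37.5 and 33.6 FPKM).

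Of 15 genes listed as binding partners, 13 were tested. In siSbp2l 8 of them passed, 6 higher and 2 lower, with a median of 0.27, where 53.4% of all genes passed (35.5% higher and 17.9% lower) and the median was 0.15. Ptgfrn, a partner of Cd9 and Cd81, was at 2.51 and 2.80 FPKM, above the 0.890 to 1.61 FPKM of the controls, and rose by 0.69 ± 0.11 (limma, adjusted p = 0.000437). Igsf8, the other such partner, did not pass in siSbp2l (0.43 ± 0.23, adjusted p = 0.139). Without non-treated replicate 1 or replicate 2, where 1 library stood for that group, its difference was 0.58 and 0.28. Itgb1, the integrin beta-1 chain, was higher by 0.27 ± 0.10 in siSbp2l (adjusted p = 0.0487), but was not called with median-ratio scaling (0.10, adjusted p = 0.508) or without any 1 of the mock, NC siRNA #1, NC siRNA #2 or siSbp2l libraries (adjusted p from 0.0671 to 0.265). Cldn11 was at 371 and 334 FPKM at Day0, between 1195 and 2307 in the controls, at 1067 and 1064 in siSbp2l and at 1063 and 956 in siPdgfra. It fell by -0.80 ± 0.09 in siSbp2l and by -0.88 ± 0.09 in siPdgfra (adjusted p = 4.83e-05 and 2.45e-05), though against NC siRNA #1 alone the siSbp2l difference was -0.24 and did not pass (adjusted p = 0.114). It rose by 2.64 ± 0.11 from Day0 to non-treated Day3 (adjusted p = 2.89e-09).

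In siPdgfra 6 of the 13 partners passed, 5 higher and 1 lower, where 55.4% of all genes passed (32.4% higher and 23.0% lower). Igsf8, 1 of the 5 higher (0.61), was not called with upper-quartile scaling (limma, adjusted p = 0.0644). Its call was also lost with only the libraries compared (adjusted p = 0.0593). Against mock alone (0.56, adjusted p = 0.144) and NC siRNA #1 alone (0.038, adjusted p = 0.92) it did not pass. Itga4, the integrin alpha-4 chain, was at 2.90 and 3.16 FPKM at Day0, at 2.33 and 2.15 in siPdgfra and between 0.213 and 1.75 in the controls, where NC siRNA #1 held the highest values. It was higher in siPdgfra by 1.02 ± 0.09 (limma, adjusted p = 1e-05), but against NC siRNA #1 alone the difference was 0.29 and did not pass (adjusted p = 0.0639). From Day0 to non-treated Day3 Itga4 fell by -1.57 ± 0.11 and Igsf8 by -1.43 ± 0.28, while Cd44 rose by 1.53 ± 0.10 (adjusted p = 1.81e-07, 0.000917 and 9.62e-08). Among all partners, 9 of 13 passed in that comparison, 6 higher and 3 lower, where 67.0% of all genes passed (28.4% higher and 38.6% lower).

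Likeness to Tspan2 was measured as the root mean square (RMS) difference of centred log2(FPKM + 1) over the 14 libraries, among 8617 other genes with a mean of 5 FPKM or more. The nearest were Lamp1, a lysosome membrane protein (0.60), Ppfibp2, a liprin-beta (0.61), the knocked-down gene Secisbp2l (0.61), Tmem125 (0.62) and Mtap7, a microtubule-binding protein (0.66), where the spread of Tspan2 itself was 1.68. Lamp1 was at 163 and 157 FPKM at Day0, between 626 and 779.5 in the controls, at 87.8 and 88.8 in siSbp2l and at 671 and 606 in siPdgfra. Like Tspan2, it was lower in siSbp2l than at Day0. Ppfibp2 was at 0.0413 and 0.0880 FPKM at Day0, at 1.81 and 1.76 in siSbp2l and between 19.0 and 26.8 in the controls, so for it Day0 was the lower of the 2. The measure includes the siSbp2l libraries, whose values chose Tspan2, so it favours genes that were also low there. The order is a description only. In an alternative added after seeing the data, those libraries were left out. The nearest genes were then Epha4 (0.15), Plekhg1 (0.17), Scarb2 (0.22), Osbpl1a (0.23) and Cyth1 (0.26). Lamp1 then moved to rank 149, Ppfibp2 to 107 and Secisbp2l to 57, while Mtap7 and Tmem125 stayed near, at ranks 8 and 9.

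The member closest to Tspan2 was Tspan15 at rank 120 (1.10), and without the siSbp2l libraries it was Cd81 at rank 165 (0.56). Cd81 and Tspan15 were each other's closest member (0.39, ranks 150 and 157), as were Cd9 and Cd63 (0.43, ranks 343 and 388). The gene nearest to Cd82 was Myrf, the transcription factor of myelin genes, listed under its older symbol Gm98 (0.27 of a spread of 1.62). The nearest to Cd81 was Adamts4, a protease of mature OLs (0.15 of 0.89), to Tspan15 Phactr3 (0.17 of 0.78), to Cd63 Yipf1 (0.20 of 0.72) and to Cd9 Dhrs1 (0.23 of 0.61). For Tspan3 (Gcdh, 0.084 of 0.15), Tspan7 (Rmnd5b, 0.079 of 0.27) and Cd151 (Sin3b, 0.13 of 0.28) the spread over the libraries was small.

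**Figure D5:**
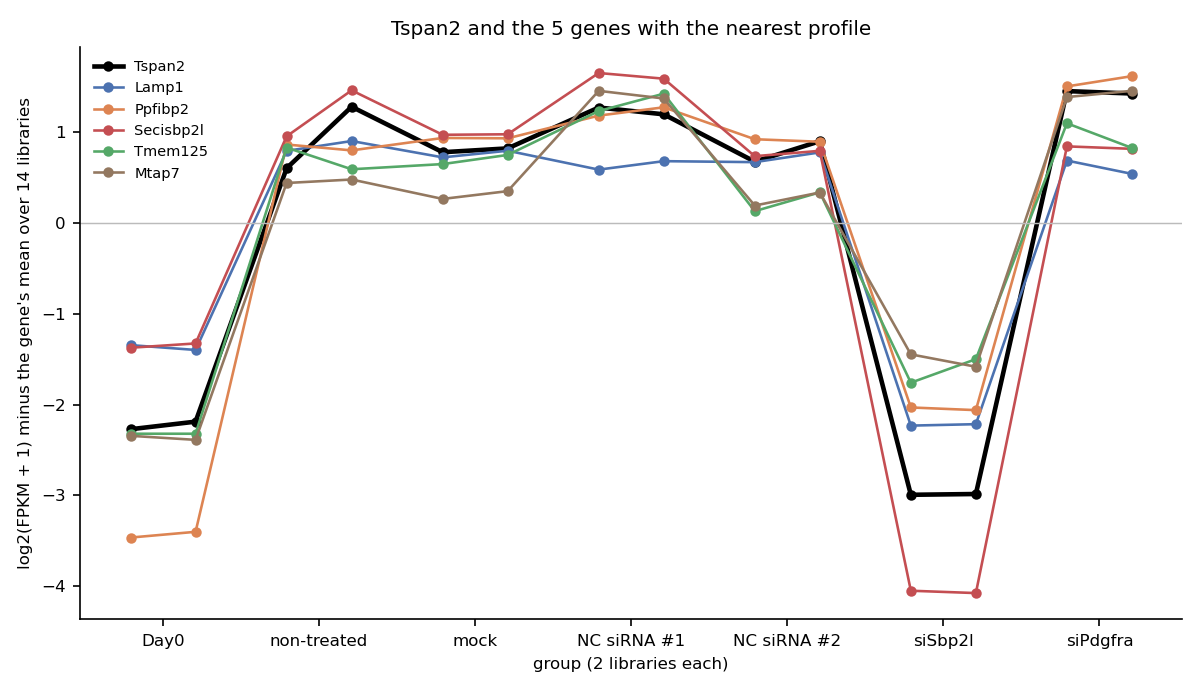
Centred log2(FPKM + 1) of Tspan2 and the 5 nearest genes in each of the 14 libraries, with lines that only join the points of a gene. The 6 genes are low at Day0 and in siSbp2l and high in the other 5 groups, with Secisbp2l lowest in siSbp2l, where it was at 3.91 and 3.82 FPKM. The siSbp2l libraries, whose values chose Tspan2, are part of the likeness measure that picked these genes.

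As a share of the summed FPKM of the 31 tetraspanins, Tspan2 made up 0.806% and 0.885% at Day0, 2.41% to 5.05% in the controls, 0.218% and 0.223% in siSbp2l, and 5.71% and 5.62% in siPdgfra. The 9 genes together made up 74.6% and 75.7% at Day0, 89.8% to 92.3% in the controls, 88.7% and 88.4% in siSbp2l, and 91.0% and 91.8% in siPdgfra. The sum itself was 1237 and 1200.4 FPKM at Day0, 2529 to 3472 in the controls, 2594 and 2552 in siSbp2l, and 2524 and 2519 in siPdgfra, so the siSbp2l sums lay at the low end of the control range and the siPdgfra sums just below it.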

How the data were processed

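The authors aligned paired-end mRNA reads to mm10 with OmicSoft ArrayStudio (version not given in the sources used here) and deposited, under the name of counts, a table of FPKM values on the refGene model. The strand setting of the counting and the treatment of reads shared with copies, such as the pseudogenes Cd9-ps and Cd63-ps, are not given in the sources used here. A second deposited table holds the authors' fold changes and p-values, made with DESeq 2, from which only coordinates and exon lengths were used.

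Groups were taken from the labels. Depth was recovered from the steps between low FPKM values and is an estimate. The test was that of limma 3.58.1 (R 4.3.3), run on log2(FPKM + 1) values with trend and robust moderation and Benjamini-Hochberg adjustment over all genes with 1 FPKM or more in at least 2 libraries. Fold changes of low genes are understated on that scale. Day0 comparisons used all 14 libraries and the others the 12 of Day3. The script was tested on simulated data. The members and lists were chosen with earlier results of these data known. Named were the 9 members, other tetraspanins and partners past the test and 2-fold in any comparison, Adam10, Itgb1, Ptgfrn, Igsf8 and Cldn11, and the genes nearest in profile. Tspan4, Tspan5 and Tspan14 were named after their values were seen. Alternatives were other scalings, pseudocounts, filters, moderation, libraries, a replicate block and leaving out each library.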

Additional observations from a re-analysis of the deposited data

How the results depend on the processing

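Depth limits low genes such as Cd151 and Tspan10 most, and 2 libraries per group limit all tests. The rises of Tspan2, Tspan15, Cd82, Cd9, Cd63 and Cd81 from Day0 kept direction and call under every alternative run.

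Counts of members called moved under several settings, among them these. In non-treated against Day0, Tspan3 and Cd151 were no longer called with only the libraries compared, as the calls over all genes went from 7952 of 11874 to 5256 of 11325. In mock against Day0, Tspan7 was called under that setting, as the calls over all genes went from 7869 of 11874 to 8805 of 11381. In siPdgfra against the controls, 5 became 3 against non-treated alone, and 2 to 8 when single libraries were left out. Between NC siRNA #1 and NC siRNA #2, 3 became 8 with only the libraries compared, as the calls over all genes went from 2444 of 11650 to 4779 of 11113. In both NC siRNAs against non-treated and mock, 2 became 1 with only the libraries compared, and 1 to 5 when single libraries were left out. With median-ratio and upper-quartile scaling, Tspan3 was also called in siPdgfra (limma, adjusted p = 0.0316 and 0.0323). Under the same scalings Cd81 was called between the NC siRNAs (adjusted p = 0.015 and 0.0353). Cd63 was called in both NC siRNAs against the others (adjusted p = 0.022 and 0.0397). The calls over all genes were then 6305 and 6238, 2406 and 2454, and 3327 and 3331 of 11650. In siSbp2l, the 7 other tetraspanins became 4 under a filter of 5 FPKM, where fewer genes were tested.

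Of uncalled or narrow values, these changed sign. In mock against Day0, Cd151 was 0.0095 with median-ratio and 0.022 with upper-quartile scaling. In siPdgfra against NC siRNA #1 alone, Tspan3 was 0.034, Cd63 0.11 and Cd82 -0.37, and against mock alone Cd151 was -0.018, Adam10 0.24 and Itgb1 0.035. With median-ratio scaling Tspan15 in NC siRNA #1 against NC siRNA #2 was 0.054 and Cd81 in both NC siRNAs against the others -0.019. In siSbp2l against NC siRNA #1 alone Igsf8 was -0.15. When single libraries were left out, Cd151 in mock ran from -0.20 to 0.12, Adam10 in siPdgfra from -0.097 to 0.066, and Tspan15 between the NC siRNAs from -0.087 to 0.071. In both NC siRNAs against the others, Tspan2 then ran from -0.029 to 0.31, Cd81 from -0.12 to 0.16, Cd82 from -0.046 to 0.28 and Cd151 from -0.19 to 0.037. The cause was not tested. Median-ratio scaling lowered the median siSbp2l difference from 0.15 to 0.0033 and the split of genes past 2-fold from 363 higher and 475 lower to 216 and 622.

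Whether replicate numbers pair the samples could not be settled: the correlations between deviations of same-numbered libraries ran from -0.38 to 0.47. They were above 0.1 in 4 of 21 pairs of groups. With the replicate number as a block, 3 calls were lost, Cd63 in siPdgfra (-0.35, adjusted p = 0.0599), Igsf8 in siPdgfra (0.61, adjusted p = 0.0501) and Itgb1 in siSbp2l (0.27, adjusted p = 0.0636), and no other call on the values reported here changed.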
